A study of Mus musculus with 15 samples.

Results

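The complement genes described here, 9 in number, were followed in cultured bone macrophages of 3 genotypes. They are the C1q subunit genes C1qa, C1qb and C1qc, the component C3, the properdin gene Cfp, the anaphylatoxin receptor genes C3ar1, C5ar1 and C5ar2, and the membrane inhibitor gene Cd59a. They were taken by gene symbol from a table of 16886 genes, and all 9 passed the filter on low counts that left 11668 genes to test. Macrophages from bone of mice labelled C57BL6J were grown for 14 days in M-CSF at 20 ng/ml, the growth factor that drives macrophage differentiation. The groups were wild type (WT, 5 libraries), ROBO4 knockout (ROBO4-/-, 5 libraries) and VLDLR knockout (VLDLR-/-, 5 libraries), and each of them received the same M-CSF. ROBO4 is a guidance receptor known mainly from endothelium, and VLDLR is a lipoprotein receptor. How the knockouts were made, the animals' age and sex, and whether libraries of a genotype came from separate animals are not given in the sources used here, so the tests measure the spread between these libraries, which may be technical.

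Complement is a cascade of blood proteins that marks particles for removal. C1q, built from chains A, B and C, starts the classical pathway on antibody or dying cells. C3 is the point where all pathways meet, and properdin stabilises the enzyme that amplifies its cleavage. The fragments C3a and C5a act on the receptors encoded by C3ar1, C5ar1 and C5ar2, and CD59 blocks the terminal pore on the cell's own membrane. Most complement is made in liver, but C1q comes largely from macrophages, dendritic cells and microglia.

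The sample codes come in 2 forms, with a digit before the letter B (7 libraries: WT 3 to 5, ROBO4 knockout 1 and 2, VLDLR knockout 1 and 2) or after it (8 libraries: WT 1 and 2, ROBO4 knockout 3 to 5, VLDLR knockout 3 to 5). What the form stands for is not given in the labels. It separated 38.1% of the tested genes at an adjusted p under 0.05 (edgeR), so every genotype comparison carried the form as a covariate and is also given within each form. Library totals lay between 18132866 and 19005966 estimated counts. The targeted genes could check the labels only weakly: Vldlr had 5 to 36 counts in WT, 2 to 38 in the ROBO4 knockout and 1 to 9 in the VLDLR knockout, and Robo4 had at most 4 counts in any library. The macrophage genes Adgre1 (744 to 1170 CPM, counts scaled to library size) and Csf1r (1140 to 2500 CPM) were high in all 15 libraries, whereas Cd3e and Pecam1, which mark T cells and endothelium, stayed at or below 1.31 CPM. The full lists were not all at 0: 9 endothelium genes summed to 85.5 to 259 CPM and 8 T and NK cell genes to 13.4 to 55.5 CPM. Some libraries stood apart. WT 1 and 2 had Fos at 856 and 945 CPM against 12.5 to 56.1 CPM elsewhere. VLDLR knockout 1 and 2 had the highest sum over 22 macrophage genes, 36200 to 43900 CPM against 19600 to 30000 CPM. Lyz2 alone made up 20200 and 26400 CPM of their sums. The mean over the 22 genes of log2 CPM, each centred on the 15 libraries, was 0.29 and 0.27 there and -0.23 to 0.16 elsewhere. Results that rest on either pair of libraries are given with and without it where that could be fitted.

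The C1q genes lie side by side on the minus strand of chromosome 4 in GRCm38.p6: C1qb at chr4:136880126-136886200, C1qc at chr4:136889801-136892936 and C1qa at chr4:136895916-136898844. C3 lies at chr17:57203967-57228136, C3ar1 at chr6:122847140-122856157, and C5ar2 and C5ar1 neighbour each other at chr7:16234587-16244154 and chr7:16246743-16259540. Cfp is at chrX:20925454-20931555 and Cd59a, the one member on the plus strand, at chr2:104095753-104115410. Of the 9 members, 8 had a promoter in the RefSeq table of that build, C1qa being the other. The 250 bases before the start site are printed for C1qb and C1qc, whose levels were nearest to each other, for C3, which varied most, and for Cd59a, which was higher in both knockouts. The start site is that of the promoter entry. For C1qc and Cd59a it lies inside the gene interval given above, so those windows reach into it. Capitals mark a match to one of 5 short motifs searched on both strands.
C1qb, chr4:136886201-136886450, minus strand: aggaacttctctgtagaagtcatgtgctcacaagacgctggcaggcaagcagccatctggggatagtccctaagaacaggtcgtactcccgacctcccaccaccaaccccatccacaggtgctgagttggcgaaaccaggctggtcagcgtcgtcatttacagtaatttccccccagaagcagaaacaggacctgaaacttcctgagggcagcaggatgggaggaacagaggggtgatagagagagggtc
C1qc, chr4:136892915-136893164, minus strand: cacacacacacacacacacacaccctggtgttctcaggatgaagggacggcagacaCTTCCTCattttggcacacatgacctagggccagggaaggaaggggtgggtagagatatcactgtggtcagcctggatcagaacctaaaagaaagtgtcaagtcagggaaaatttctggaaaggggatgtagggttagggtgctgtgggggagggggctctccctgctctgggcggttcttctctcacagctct
C3, chr17:57228137-57228386, minus strand: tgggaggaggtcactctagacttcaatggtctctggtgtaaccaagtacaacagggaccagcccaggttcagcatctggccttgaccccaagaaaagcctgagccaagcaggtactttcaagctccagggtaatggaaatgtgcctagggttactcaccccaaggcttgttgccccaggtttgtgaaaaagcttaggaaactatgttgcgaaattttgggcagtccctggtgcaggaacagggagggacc
Cd59a, chr2:104095551-104095800, plus strand: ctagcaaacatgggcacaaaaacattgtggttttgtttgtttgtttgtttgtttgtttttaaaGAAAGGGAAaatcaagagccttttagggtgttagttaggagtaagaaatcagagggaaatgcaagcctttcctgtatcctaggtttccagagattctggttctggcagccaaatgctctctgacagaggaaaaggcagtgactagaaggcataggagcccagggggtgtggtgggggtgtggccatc
The motifs were the PU.1 core GAGGAAG, the MAF site TGCTGAC, the interferon response core GAAANNGAA, the TATA box TATAAA and the C/EBP site TTGCGCAA, and no pair of them overlaps in these stretches. C1qc held the PU.1 core on the other strand as CTTCCTC, 194 bases before the start site, and Cd59a held the interferon core GAAAGGGAA at 187 bases before it. Among 32851 RefSeq promoters cut the same way, 10.6% held the PU.1 core and 7.13% the interferon core. None of the 5 motifs was found in the C1qb and C3 windows, although TATA boxes were found in 12.4%, the MAF site in 3.81% and the C/EBP site in 0.164% of all promoters. Of the members not printed, C3ar1 held a TATA box at 235 bases, C5ar1 an interferon core at 66 bases, on the other strand as TTCCTTTTC, and the second promoter of C5ar2 a PU.1 core at 26 bases. The GC content was 55.2% for C1qb, 54.0% for C1qc, 52.0% for C3 and 44.8% for Cd59a, against a median of 52.4%.

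Per transcript length, C1qb and C1qc were among the most abundant messages of these cells. The median FPKM (fragments scaled to transcript length and library depth) over the 15 libraries was 1030 for C1qb, which ranked 65 of the 11668 tested genes, and 679 for C1qc, at rank 111. C3ar1 followed at 267 FPKM (rank 280), C1qa at 221 (rank 338), C5ar1 at 142 and Cfp at 118. Cd59a stood far lower at 16.6 FPKM, and C3 (3.59) and C5ar2 (3.33) lower still. The order held in every library for C1qb over C1qc, C1qc over C3ar1, C1qa over C5ar1 and Cfp over Cd59a. It held in 12 of 15 libraries for C5ar1 over Cfp and for Cd59a over C3, in 10 for C3ar1 over C1qa and in 9 for C3 over C5ar2, so those neighbours were not separated beyond their spread. C3 had the widest span, 1.28 to 76.6 FPKM or 59.8-fold. Its FPKM depends on how reads were divided between transcripts: the predicted transcript XM_011246258.1 took 29.0% to 72.7% of the gene's reads in VLDLR knockout 1 and 2 and 6.93% to 37.4% in the others. Further values for C3 are therefore counts.

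**Figure D1:**
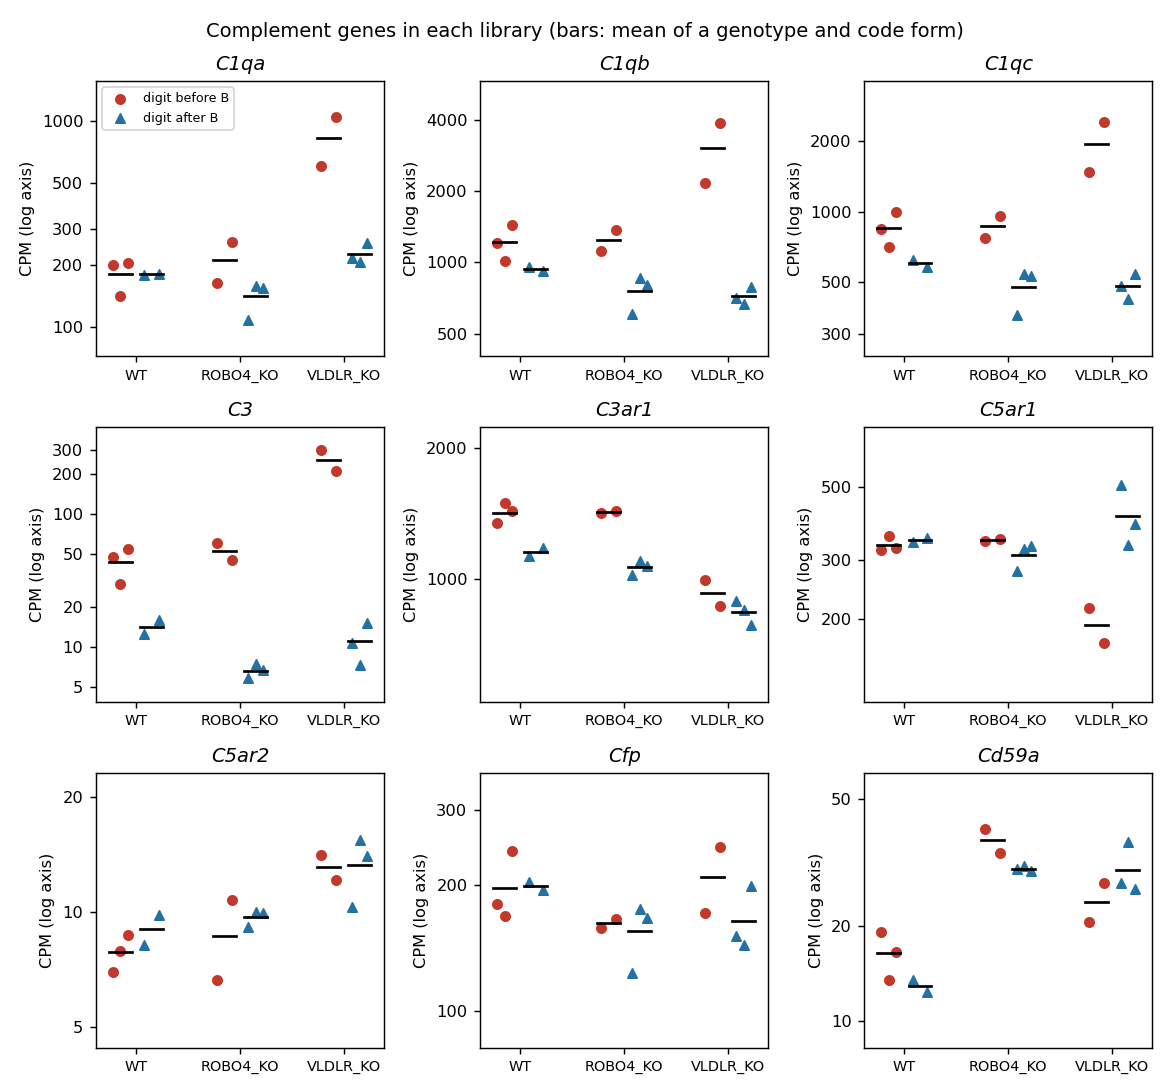
Level of each complement gene in each library, in CPM on a log axis, by genotype. Circles are codes with the digit before B, triangles codes with the digit after B, and bars are the mean of a genotype and form. VLDLR_KO circles stand above all other points for the C1q genes and C3 and below them for C5ar1, while all VLDLR_KO points lie below the others for C3ar1.

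The first comparison asked which members differ between VLDLR knockout and WT macrophages. C1qa, C5ar2 and Cd59a were higher and C3ar1 was lower, and the other 5 did not pass the test. The 3 higher and 1 lower of 9 members stand against 7.74% of all genes higher and 9.03% lower, 16.8% in either direction. The median log2 difference was 0.48 over the members and 0.02 over all tested genes. Without WT 1 and 2, C3 joined the higher members, making 4 higher and 1 lower, against 5.39% and 5.61% of all genes. Without VLDLR knockout 1 and 2, an alternative chosen after seeing the data, C1qa left them and 2 were higher and 1 lower, against 10.6% and 11.2%. In these bulk samples, fewer cells of a type and less RNA per cell cannot be told apart.

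C3ar1, the receptor for C3a, gave the most stable difference. It was at 991, 865, 888, 848 and 782 CPM in VLDLR knockout 1 to 5, against 1130, 1180, 1340, 1490 and 1430 CPM in WT 1 to 5. The groups did not overlap: every VLDLR knockout library was below every WT library, and also below every ROBO4 knockout library (1020 to 1430 CPM). The mean was 875 ± 76.0 CPM (SD, n = 5) against 1310 ± 155 CPM, a log2 difference of -0.52 ± 0.08 (SE; edgeR, adjusted p = 0.000257). It was -0.61 (adjusted p = 0.00974) for the digit before B and -0.46 (adjusted p = 0.00893) for the digit after it. All 28 alternatives kept the call, at -0.61 to -0.42. The macrophage gene Adgre1 was also low in VLDLR knockout 2 to 5 (744 to 814 CPM, against 1040 to 1170 CPM in WT and ROBO4 knockout libraries), and its part in the C3ar1 difference was not tested.

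The receptors for C5a moved otherwise. C5ar2, a receptor that does not couple to G proteins, was at 14.1, 12.1, 10.3, 15.4 and 14.0 CPM in VLDLR knockout 1 to 5. WT 1 to 5 had 8.16, 9.82, 6.97, 7.88 and 8.69 CPM, so all VLDLR knockout libraries were above all WT libraries. The log2 difference was 0.65 ± 0.15 (SE, adjusted p = 0.00753). Within the forms it was 0.75 (adjusted p = 0.0505) and 0.56 (adjusted p = 0.0735), so neither passed alone. C5ar1, the signalling C5a receptor, showed opposite differences in the forms. With the digit before B it was at 215 and 169 CPM in the VLDLR knockout against 323 to 354 CPM in WT, a log2 difference of -0.79 (adjusted p = 0.00684). In codes with the digit after B it was at 504, 333 and 385 CPM against 340 and 349 CPM, a log2 difference of 0.24 that did not pass (adjusted p = 0.33). Over both forms the difference was -0.18 ± 0.21 (SE, adjusted p = 0.574). The C5ar1 reads were split between transcripts, with 22.8% to 58.8% on NM_001173550.1, and the gene's sum was tested.

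Cd59a was higher in both knockouts. WT 1 to 5 had 13.5, 12.4, 19.1, 13.5 and 16.6 CPM, and ROBO4 knockout 1 to 5 had 40.5, 33.9, 30.1, 30.9 and 29.7 CPM. VLDLR knockout 1 to 5 had 20.5, 27.2, 27.3, 36.7 and 26.1 CPM. No library of either knockout reached down to the WT range. The mean ratio to WT was 2.20 for the ROBO4 knockout, with a log2 difference of 1.16 ± 0.16 (SE; edgeR, adjusted p = 0.00119), and 1.84 for the VLDLR knockout, with 0.91 ± 0.16 (SE, adjusted p = 0.00128). Both comparisons share the WT libraries. The knockouts did not pass the test against each other (-0.25 ± 0.15, adjusted p = 0.284). Within the forms the ROBO4 difference was 1.18 (adjusted p = 0.107) for the digit before B and 1.22 (adjusted p = 0.00746) in the other form. For the VLDLR knockout it was 0.55 (adjusted p = 0.0821) and 1.21 (adjusted p = 0.00186), and the difference between those was 0.67 (adjusted p = 0.0881). Without WT 1 and 2 the ROBO4 difference was 1.01 at an adjusted p of 0.0601. Transcript NM_007652.5 took 86.9% to 95.9% of the reads, and the neighbouring copy Cd59b was at or below 0.312 CPM.

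Cd59a was the one member called between the ROBO4 knockout and WT, where 0.643% of all genes were called, 0.343% higher and 0.3% lower. The other 8 members had log2 differences between -0.37 (C3, adjusted p = 1) and 0.13 (C5ar2). With the digit before B they lay between -0.27 (Cfp) and 0.27 (C3). With the digit after B, C3 was at 5.83 to 7.50 CPM against 12.5 and 16.0 CPM in WT. That log2 difference of -1.09 did not pass (edgeR, adjusted p = 0.118). The rest of the 8 lay between -0.36 (Cfp) and 0.11 (C5ar2) in that form, and none passed. Cfp was at 203, 194, 180, 168 and 240 CPM in WT 1 to 5 and 158, 166, 123, 175 and 167 CPM in ROBO4 knockout 1 to 5. Over both forms the groups overlapped and differed by -0.30 (adjusted p = 0.862). Within each form the ROBO4 knockout libraries were below those of WT, but neither difference passed. In the VLDLR knockout, Cfp had 171, 246, 151, 144 and 198 CPM, a difference of -0.10 ± 0.14 (SE, adjusted p = 0.676) from WT.

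The C1q genes and C3 were highest in VLDLR knockout 1 and 2. C1qa was at 606 and 1040 CPM there, at 218, 208 and 256 CPM in VLDLR knockout 3 to 5, at 180, 181, 200, 142 and 205 CPM in WT 1 to 5, and at 164, 258, 109, 159 and 156 CPM in ROBO4 knockout 1 to 5. C1qb was at 2170 and 3880 CPM in VLDLR knockout 1 and 2, at 709, 671 and 788 CPM in 3 to 5, and at 957, 925, 1210, 1010 and 1440 CPM in WT 1 to 5, with 605 to 1370 CPM in the ROBO4 knockout. C1qc was at 1480 and 2400 CPM, then 480, 423 and 543 CPM, against 621, 580, 842, 705 and 1000 CPM in WT and 363 to 956 CPM in the ROBO4 knockout. For C1qb and C1qc the VLDLR knockout libraries thus lay above WT in one form and, among libraries of the other form, below it.

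C3 had the steepest pattern. It was at 301 and 212 CPM in VLDLR knockout 1 and 2 but at 10.8, 7.31 and 15.2 CPM in 3 to 5. WT had 47.4, 29.9 and 54.4 CPM in replicates 3 to 5 and 12.5 and 16.0 CPM in replicates 1 and 2, and the ROBO4 knockout had 60.5 and 45.3 CPM in replicates 1 and 2 and 5.83, 7.50 and 6.71 CPM in replicates 3 to 5. Every library with the digit before B was above every library with the digit after B, in each genotype.

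Over both forms, the VLDLR knockout differed from WT by 1.27 ± 0.30 on the log2 scale for C1qa (SE; edgeR, adjusted p = 0.0103). For C1qb it was 0.48 ± 0.28 (adjusted p = 0.252), for C1qc 0.45 ± 0.25 (adjusted p = 0.244) and for C3 1.21 ± 0.44 (adjusted p = 0.0745), which did not pass. With the digit before B, 4 members were higher and 2 lower, where 20.5% of all genes were called, and the C1q genes and C3 rose: C1qa by 2.19 (adjusted p = 0.00337), C1qb by 1.32 (adjusted p = 0.014), C1qc by 1.20 (adjusted p = 0.0141) and C3 by 2.55 (adjusted p = 0.00146). With the digit after B, Cd59a was higher and C3ar1 lower, where 15.7% of genes were called. For C1qa, C1qb, C1qc and C3 the log2 differences there were 0.33 (adjusted p = 0.188), -0.38 (adjusted p = 0.106), -0.32 (adjusted p = 0.238) and -0.36 (adjusted p = 0.392), and none passed. The C3 difference over both forms passed without WT 2 (1.52, adjusted p = 0.033), without VLDLR knockout 4 (1.46, adjusted p = 0.0252) and without WT 1 and 2 (2.19, adjusted p = 0.00248). On all 15 libraries it passed with limma-voom (1.61, adjusted p = 0.0151). The C1qa difference was 0.50 (adjusted p = 0.101) without VLDLR knockout 1 and 2.

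**Figure D2:**
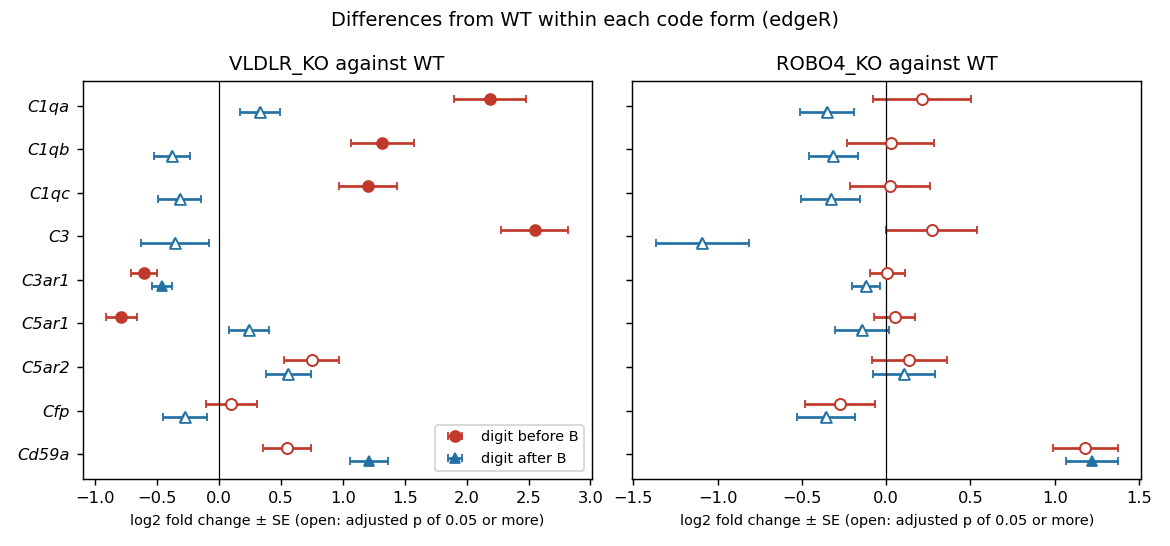
Difference of each knockout from WT within each code form, as log2 fold change with its standard error (edgeR); filled symbols have an adjusted p under 0.05. In the VLDLR_KO panel the C1q genes, C3 and C5ar1 lie far apart between circles and triangles, and C3ar1 is below 0 in both. In the ROBO4_KO panel only Cd59a lies above 1, and only the open triangle of C3 lies below -1.

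The difference between the forms was tested itself. The VLDLR effect differed between the forms, after minus before, by -1.84 for C1qa (adjusted p = 0.00553), -1.69 for C1qb (adjusted p = 0.00442), -1.51 for C1qc (adjusted p = 0.00803), -2.90 for C3 (adjusted p = 0.000923) and 1.04 for C5ar1 (adjusted p = 0.00962). These 5 of 9 members compare with 15.2% of all genes, and all 5 calls held in 20 of 20 alternatives. For the ROBO4 effect no member was called by edgeR, DESeq2 or limma-voom, and 1 had an unadjusted p under 0.05 in each. The background there was 0.403%, and within the forms 0.168% (before) and 1.6% (after) of genes were called between the ROBO4 knockout and WT. The VLDLR effect by form rests on 2 pairs of libraries. VLDLR knockout 1 and 2 are the only VLDLR libraries with the digit before B. WT 1 and 2 are the only WT libraries with the digit after B. None of the 20 alternatives left out a whole pair, because the interaction could then not be fitted.

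Markers of other cells were looked at beside these values. VLDLR knockout 1 and 2 also had the highest Lyz2 (20200 and 26400 CPM, against 4990 to 15600 CPM) and Csf1r (2500 and 2380 CPM, against 1140 to 1650 CPM). Not all macrophage genes were high there: Adgre1 was at 1050 and 814 CPM, against 1040 to 1170 CPM in WT and ROBO4 knockout libraries. Itgam was lower than in WT of the same form (log2 difference -1.10, edgeR adjusted p = 0.0359). The sum of 12 neutrophil genes was 177 to 190 CPM in VLDLR knockout 1 and 2 and 52.6 to 123 CPM elsewhere. Most of it in those libraries was Csf3r (187 and 174 CPM), while S100a9 was at 0 in both. The sum of 21 fibroblast and matrix genes was 19.6 to 79.4 CPM there, against 294 to 1010 CPM in WT 3 to 5. It was 141 and 831 CPM in ROBO4 knockout 1 and 2, and 63.5 to 364 CPM in the libraries with the digit after B. Kit, a mast cell gene, was at 4.24 and 2.20 CPM in VLDLR knockout 1 and 2. It was at 21.1 to 37.1 CPM in WT and ROBO4 knockout libraries of the same form, and at 0.558 to 3.86 CPM in the other form. VLDLR knockout 1 and 2 were also compared for inflammatory genes. The sum of 20 NF-kB inflammatory genes was 634 to 761 CPM there, 553 to 677 CPM in WT 3 to 5 and 1430 to 1700 CPM in WT 1 and 2. Their part in the C1q and C3 values was not tested.

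Between the forms, over all genotypes, C1qa, C1qb, C1qc, C3 and C3ar1 were lower with the digit after B and no member was higher, where 19.3% of all genes were lower and 18.8% higher. The log2 difference was -3.06 ± 0.37 for C3 (SE, adjusted p = 2.71e-05), -1.13 for C1qc (adjusted p = 0.00083), -1.06 for C1qb (adjusted p = 0.0024), -0.82 for C1qa (adjusted p = 0.0174) and -0.29 for C3ar1 (adjusted p = 0.0023). Without VLDLR knockout 1 and 2 it was -0.29 for C1qa (adjusted p = 0.181), -0.54 for C1qb (adjusted p = 0.00371) and -0.67 for C1qc (adjusted p = 0.00198). The ROBO4 and VLDLR libraries with the digit after B had Fos at 41.9 to 56.1 CPM. Marker sums of other cells also differed between the forms, before against after: 8 erythroid and megakaryocyte genes had 3.3 to 7.08 CPM against 24.3 to 44.0 CPM, 7 B cell genes 8.9 to 25 CPM against 29.5 to 66.3 CPM, and the endothelium genes 200 to 259 CPM against 85.5 to 142 CPM. Their part in the form difference was not tested.

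The proportions of the C1q messages were compared because the protein needs all 3 chains, a comparison chosen after the values were seen. C1qc to C1qb was nearly constant, an FPKM ratio of 0.607 to 0.707 over all 15 libraries. The C1qa to C1qb ratio was 0.137 to 0.192 in WT, 0.143 to 0.191 in the ROBO4 knockout and 0.263 to 0.319 in the VLDLR knockout, with no overlap between the VLDLR knockout and the rest. C1qa made up 7.43% to 10.5% of the C1q FPKM in WT, 7.79% to 10.3% in the ROBO4 knockout and 13.9% to 15.8% in the VLDLR knockout. This held in both forms, where the levels themselves went different ways. Relabelling libraries within each form, the VLDLR knockout exceeded WT 1.74-fold (log2 difference 0.80, two-sided exact permutation p = 0.01, the smallest that 100 relabelings allow; adjusted over 6 comparisons 0.05, at the threshold). It exceeded the ROBO4 knockout 1.67-fold (log2 difference 0.74, exact p = 0.0167 over 120 relabelings; adjusted 0.05). The ROBO4 knockout differed from WT by 0.06 (exact p = 0.57). For C1qc to C1qb the 3 differences lay between -0.02 and -0.01, with exact p-values of 0.69 to 0.933.

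**Figure D3:**
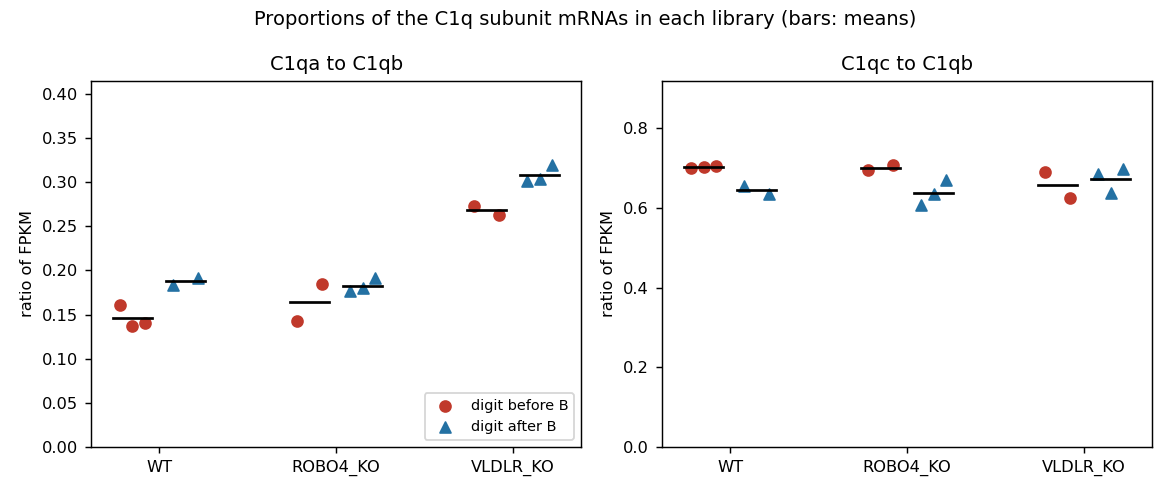
Ratio of FPKM between C1q genes in each library, by genotype, with circles for codes with the digit before B, triangles for the digit after B and bars for means. The C1qa to C1qb ratio is 0.263 to 0.319 in VLDLR_KO and at most 0.192 elsewhere, and the C1qc to C1qb ratio stays within 0.607 to 0.707.

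The comparison of the 2 knockouts gave 3 members higher and 1 lower in the VLDLR knockout, against 7.57% and 8.44% of all genes (16% in either direction). The log2 differences were 1.29 for C1qa (adjusted p = 0.0108), 1.57 ± 0.44 for C3 (SE, adjusted p = 0.0268), 0.51 for C5ar2 (adjusted p = 0.0261) and -0.45 for C3ar1 (adjusted p = 0.000782). With the digit before B, where 5.84% of all genes were higher and 6.77% lower, C1qa (1.97, adjusted p = 0.0121), C1qb (1.29, adjusted p = 0.0303), C1qc (1.18, adjusted p = 0.0303) and C3 (2.28, adjusted p = 0.00582) were higher. C3ar1 (-0.61, adjusted p = 0.0172) and C5ar1 (-0.84, adjusted p = 0.0107) were lower there. In the other form, where 7.21% were higher and 7.61% lower, only C1qa (0.69, adjusted p = 0.0178) and C3ar1 (-0.34, adjusted p = 0.0192) passed, with C3 at 0.73 (adjusted p = 0.091) and C5ar2 at 0.45 (adjusted p = 0.0975). C3ar1 kept its call in all 28 alternatives. C1qa, C3 and C5ar2 all lost theirs without VLDLR knockout 1 and 2, at 0.57 (adjusted p = 0.0599), 0.38 (adjusted p = 0.486) and 0.45 (adjusted p = 0.0826). C3 also lost it when ROBO4 knockout 1, 2 or 3 or VLDLR knockout 1 was left out, with log2 differences of 1.64, 1.48, 1.54 and 1.20 (adjusted p = 0.0588, 0.0783, 0.0559 and 0.0578). For C5ar2 the libraries were ROBO4 knockout 1 or 3 and VLDLR knockout 1, 4 or 5, with log2 differences of 0.42 to 0.50 (adjusted p = 0.0673, 0.058, 0.0544, 0.0557 and 0.0558).

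The genes whose level followed each member most closely over the 15 libraries were found by the root mean square difference of centred log2 CPM. C1qb and C1qc were each other's nearest among 11667 genes (0.07). C1qa was nearest to Sap25 (0.26), Cebpd (0.28) and H2afj (0.29), and C1qb came at rank 24 (0.41) and C1qc at rank 42 (0.43). C3 was nearest to Tmem176b (0.36) and Tmem176a (0.37), C3ar1 to Pdxk (0.10), and Cd59a to Nxpe4 (0.28). These are descriptions over libraries that share genotype and form.

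Other complement genes came from a list of 49, of which 41 were in the table and 19 were tested. The early enzymes and the terminal pathway were scarcely expressed: C1ra averaged 3.32 CPM, C2 1.73 CPM and C8g 0.527 CPM. The most counted were receptors and Calr, the chaperone calreticulin, which also acts in C1q-mediated uptake. Lrp1, a broad endocytic receptor, was at 2020 CPM, Calr at 835 CPM, Itgb2, Itgax and Itgam, which form complement receptors 3 and 4, at 1300, 733 and 566 CPM, and Cd93 at 452 CPM. Between the VLDLR knockout and WT, 4 of the 19 were higher and 2 lower, against 7.74% and 9.03% of all genes, with a median log2 difference of 0.17. Without WT 1 and 2, where 22 were tested, 1 was higher and none lower (edgeR; 8 had an unadjusted p under 0.05), against 5.39% and 5.61%. Without VLDLR knockout 1 and 2, 5 were higher and 1 lower, against 10.6% and 11.2%.

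Of the receptors, Itgax was at 950, 746, 1360, 2360 and 1570 CPM in VLDLR knockout 1 to 5 and 718, 839, 109, 104 and 67.4 CPM in WT 1 to 5. It rose by 2.21 ± 0.36 (SE, adjusted p = 0.000727), by 3.19 (adjusted p = 0.000301) with the digit before B and 1.18 (adjusted p = 0.0495) in the other form. Without the form in the model its adjusted p was 0.141. Itgax is also a dendritic cell marker, and it made up most of that list's summed level, 82.2 to 857 CPM in WT and 763 to 2380 CPM in the VLDLR knockout. Itgam fell by 0.82 on the log2 scale (adjusted p = 0.0114), from 619 ± 247 to 427 ± 224 CPM (SD, n = 5), with overlapping groups over both forms. Within the forms its log2 difference was -1.10 (edgeR, adjusted p = 0.0359) for the digit before B and -0.62 (adjusted p = 0.0497) for the digit after it. Without WT 1 and 2 it was -0.87 (adjusted p = 0.0605), and without the form in the model -0.54 (adjusted p = 0.42). Vsig4, a macrophage receptor for C3 fragments, went from 0.486 to 3.55 CPM, a log2 difference of 2.12 (adjusted p = 0.0145), with 4.70, 3.96 and 8.47 CPM in VLDLR knockout 3 to 5 and 0.272 and 0.357 CPM in 1 and 2. Without WT 2 the difference for Vsig4 was 1.89 (adjusted p = 0.0626), and without WT 1 and 2 it was 1.72 (adjusted p = 0.195).

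Among soluble members, Fcna, a ficolin that starts the lectin pathway, rose from 8.72 ± 1.56 to 15.3 ± 3.54 CPM (SD, n = 5; log2 difference 0.82, adjusted p = 0.00445), with no overlap. Without WT 1 and 2 it was 0.72 (adjusted p = 0.0646) and with the digit before B 0.75 (adjusted p = 0.0548), so neither passed. Against the ROBO4 knockout it was higher by 1.10 (adjusted p = 0.00043), a call that all 28 alternatives kept. Serping1, the C1 inhibitor, was at 1.86 ± 0.898 CPM in WT and 0.392 ± 0.293 CPM in the VLDLR knockout (-2.08, adjusted p = 0.0498), and this call held in only 6 of 28 alternatives. The membrane inhibitors Cr1l (80.7 ± 4.98 and 90.5 ± 5.46 CPM), Cd55 (0.701 and 0.927 CPM) and Cd46 (1.17 and 0.935 CPM) did not pass over both forms. Cd55 was higher in the VLDLR knockout with the digit after B (1.75, adjusted p = 0.0268) and at -0.16 (adjusted p = 0.852) in the other form. Between the ROBO4 knockout and WT, none of the 19 was called by edgeR, DESeq2 or limma-voom, and edgeR gave 3 with an unadjusted p under 0.05.

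**Figure D4:**
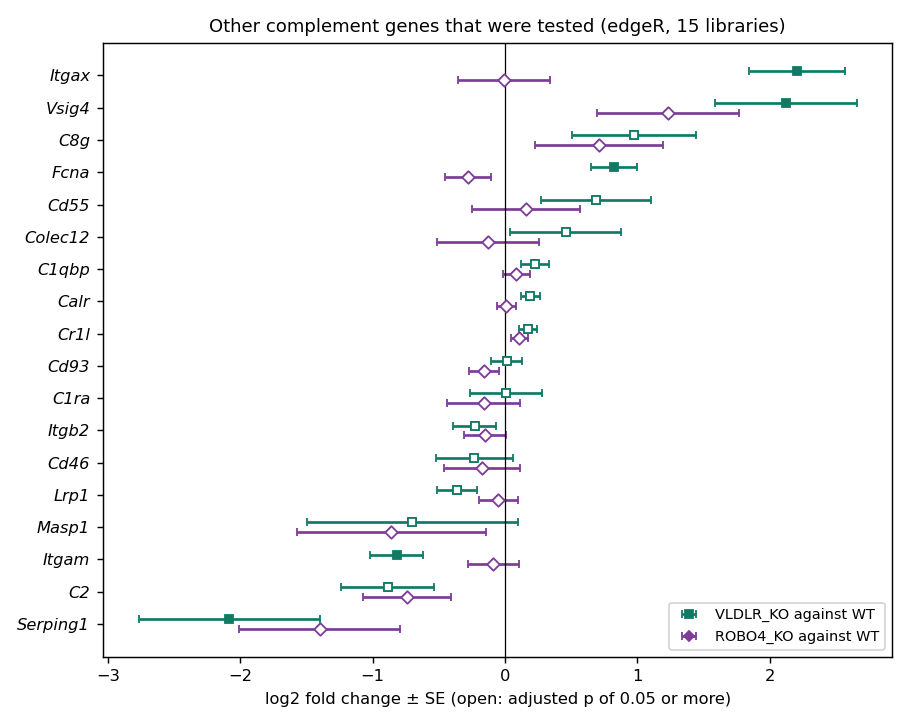
Log2 fold change with its standard error (edgeR, 15 libraries) of 18 of the other complement genes that were tested, squares for VLDLR_KO against WT and diamonds for ROBO4_KO against WT. Filled symbols have an adjusted p under 0.05: 3 squares above 0, 2 below it and no diamond.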

How the data were processed

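RNA-seq was measured in 15 libraries of cultured bone macrophages. Per the labels' protocols, total RNA was taken with TRIzol, prepared with a SMARTER mRNA kit and sequenced in pairs on a BGISEQ-500. HISAT, Bowtie2 and GRCm38.p6 are named in the submitters' processing notes, and the quantifier is not given in the sources used here. The authors deposited estimated counts per gene, of which 92.6% were whole numbers, and these were rounded. The deposited expression columns were taken to be FPKM from a check on 420 genes with 1 transcript and at least 500 counts in every library. Count divided by value and library total was scaled to each gene's mean, and the library medians departed from it by at most 1.2%. Counts of replicates differed by more than sampling noise (chi-square per degree of freedom 5.92 to 92.56).

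Genes were filtered by filterByExpr, scaled by TMM and tested by edgeR 4.0.16 (R 4.3.3) with a quasi-likelihood model of genotype and code form over all libraries. The interaction of genotype and form was fitted separately. P-values were adjusted by Benjamini-Hochberg over all 11668 genes, with 0.05 as threshold. CPM use TMM-scaled totals. Alternatives used DESeq2 1.42.0, limma 3.58.1 (with log2 of FPKM plus 1), other scalings, no filter, other covariates and left-out libraries. The fit was tested on simulated data. The members and gene lists were chosen with earlier results of these data known. Named genes are all members, the other pathway genes called (1 of them is not reported here), and the nearest genes of members.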

Additional observations from a re-analysis of the deposited data

Results flagged for a closer look

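Of the complement genes, 5 had a VLDLR knockout effect that differed between the sample code forms by the interaction test (edgeR), against 15.2% of all 11668 genes. The difference in effect, digit after B minus digit before B on the log2 scale, was -1.84 for C1qa, -1.69 for C1qb, -1.51 for C1qc, -2.90 for C3 and 1.04 for C5ar1. With the digit before B, the VLDLR knockout has 2 libraries and WT 3, and with the digit after B it has 3 and WT 2. No group of 5 libraries held a member value that stood apart by Dixon's criterion, out of 27 groups looked at, where chance gives about 1 in 20. The criterion looks for 1 library that stands alone, and each group mixed both forms. Libraries that are high together, as VLDLR knockout 1 and 2 for the C1q genes and C3, can hide each other from it.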

How the results depend on the processing

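The number of genes called between the VLDLR knockout and WT was 1957, between the ROBO4 knockout and WT 75 and between the knockouts 1868. Without the form as covariate these were 1086, 39 and 888. Between the knockouts, 1141 were called with the replicate block by sample code and 1144 with only those libraries fitted. Deviations of same-coded libraries correlated with r of -0.561 to 0.443 and those of differently coded libraries with -0.659 to 0.717, which showed no sign of pairing. With 2 or 3 libraries per genotype and form, deviations from their mean are tied to each other, so this cannot exclude pairing. The block called 1517 genes between the VLDLR knockout and WT and 51 between the ROBO4 knockout and WT, and C1qa and C3 lost their call between the knockouts (1.05, adjusted p = 0.0693, and 1.42, adjusted p = 0.145). The ROBO4 count was also 172 with DESeq2, 44 without WT 1 and 2, 20 and 188 within the forms before and after, 165 with only those libraries fitted and 193 without VLDLR knockout 1 and 2. DESeq2 called 88 genes, against 47, for the ROBO4 effect by form. Leaving out 1 library gave 55 to 125 calls for the ROBO4 knockout and 598 to 5090, against 1777, for the VLDLR effect by form, the highest without VLDLR knockout 1 and the lowest without WT 2. With library totals as the only scaling, the median VLDLR effect by form moved to 0.15, with 1017 genes higher and 664 lower against 815 and 962. Causes were not tested. The members' log2 differences stayed on their side of the threshold in 1271 comparisons with an alternative, with the same sign in 1214 and a changed sign, uncalled in both, in 57. They lost the call in 30 and gained it in 13, all with the same sign. Of the 57, 27 were between the ROBO4 knockout and WT and 10 between the VLDLR knockout and WT, where C1qb, C1qc, C3 and C5ar1 changed sign within the form after and Cfp within the form before. Interactions without WT 1 and 2, or without VLDLR knockout 1 and 2, could not be fitted. C5ar2 (6.61 to 15.4 CPM) and C3 with the digit after B (5.83 to 16.0 CPM) rest on the fewest counts.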
